A study of Mus musculus with 12 samples.

Results

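Imprinted genes are expressed mainly from the maternal or the paternal copy, and 44 mouse genes named for this property were followed across 12 RNA-seq libraries. Members were chosen by symbol from a list of known imprinted genes. All 44 of 44 were found among the 55573 genes of the count table, and 39 passed the filter on low counts. The libraries came from fibroblasts, the main cells of connective tissue, cultured from E13.5 embryos of the C57BL/6 strain and called MEFs. All cells carried the i4F transgene, a cassette of Oct4, Sox2, Klf4 and cMyc (OSKM) that is switched on by doxycycline and can turn fibroblasts into induced pluripotent stem cells. Every culture was kept in iPSC medium for 72 h. The MEF group had no additive, MEF+B12 had vitamin B12 at 2 µM, OSKM had doxycycline at 1 µg/mL, and OSKM+B12 had both. Each group had 3 libraries, 1 from each of clones 1, 2 and 3, and a clone is the culture of 1 embryo. Only induced cells had doxycycline, and effects of the drug and of the factors cannot be told apart. C57BL/6 is an inbred strain and the counts did not separate the parental copies, so a level below is the sum over both.

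Genomic imprinting rests on DNA methylation laid down in the egg or the sperm at imprinting control regions and then kept in body cells. Imprinted genes sit in clusters, so that 1 control region often sets the expression of several neighbours, protein-coding genes and long noncoding RNAs among them. Many of them act on the growth of the embryo and the placenta, several are strongly expressed in embryonic connective tissue, and loss of imprinting at some clusters is a known fault of cultured and reprogrammed cells.

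Library totals ranged from 56971244 to 79236795 counted read pairs. Levels are given as CPM, counts scaled so that each library sums to 1e+06 before a further scaling between libraries (TMM), and differences as log2 fold changes. The adjusted p-values come from the quasi-likelihood F test of edgeR with Benjamini-Hochberg adjustment over 19174 genes, a value under 0.05 is a call, and ± after a log2 value is its standard error. With 3 cultures a group, p-values of the treatment comparisons measure the spread among these cultures only. Each clone is 1 embryo, so tests that compare clones set these 3 cultures against the spread among their own libraries. Their p-values do not extend to other embryos. The induced factors marked a difference between the clones: Pou5f1 (Oct4) reached 19.3, 18.5 and 2.86 CPM in the OSKM libraries of clones 1, 2 and 3, and Sox2 15.5, 13.3 and 2.33 CPM. The induced libraries of clone 3 therefore stood apart, and results that rest on them are given with and without that clone. Clone 1 carried RNA of Y-linked genes and nearly none of Xist, the reverse of clones 2 and 3, and its library titles carry another year, so embryo, sex and title year cannot be told apart for clone 1. Fibroblast markers summed to 83856 to 137652 CPM, and none of the 9 was at 0.

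The listed imprinted genes made up 2.20% to 2.84% of all counts of a library. The noncoding RNA H19 alone gave 1.11% to 1.44%, with 11035 to 13885 CPM. Per kilobase of exon, H19 was the most abundant member at 4808 CPM per kb. Next on this scale came Cdkn1c, an inhibitor of cyclin-dependent kinases, at 780.1 CPM per kb, and Dlk1, a membrane protein related to Notch ligands, at 300.0. They were followed by Gnas, which encodes the stimulatory G protein alpha subunit, at 247 CPM per kb and by Mest, a protein of the alpha/beta hydrolase fold, at 197. Across members, the mean level was over 100 CPM for 15, between 10 and 100 for 11, between 1 and 10 for 10, and under 1 for 8. The 5 that did not pass the filter were Magel2 with 0 to 15 counts in a library, Phlda2 with 0 to 5, Kcnq1 with 1 to 11, Slc22a3 with 0 to 2 and Slc22a2 with 1 to 12. These 5 were left out of the tests by the filter on low counts. Where fewer libraries changed what the filter kept, Slc22a2 was called between clones without clone 2 and Magel2 without clone 3. Slc22a2 had 4 to 12 counts in clone 3 and 1 to 5 in clone 1. Magel2 had 6 to 15 in clone 1 and 0 to 3 in clone 2. Each passed the filter only through the clone where it was higher, so these calls cannot count as evidence of a clone difference. Counting intervals are narrow for most members at these totals, but they cover counting error only, since reads amplified by PCR are not independent molecules.

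Induction of OSKM for 72 h changed no imprinted gene past the threshold. Without B12, edgeR called 0 of 39 members against 0.073% of all genes tested, DESeq2 called 1 (Zim1, 2.56%) against 2.75% of all genes, and 12 members (30.8%) had an unadjusted p under 0.05 against 19% of all genes. Of those 12, 5 were higher and 7 lower, against 9.07% and 9.92% of all genes. With B12, edgeR called 0 of 39 against 0.104% and DESeq2 0 against 2.35%, and 11 members (28.2%) had an unadjusted p under 0.05 against 14.9%. Here 5 were higher and 6 lower, against 6.71% and 8.17%. Both comparisons use the same clones but different libraries, and 6 members were on both lists (50% of the first, 54.5% of the second), all 6 with the same sign. In the Dlk1-Meg3 cluster these were Rian, a noncoding RNA that hosts small nucleolar RNAs, at 0.22 and 0.22 (log2, without and with B12), and Rtl1, a gene derived from a retrotransposon, at 0.37 and 0.43. In the Peg3 cluster they were Usp29, a member of the ubiquitin protease family, at -0.23 and -0.24 and Zim1, a zinc finger gene, at -0.35 and -0.21. The others were Mest at -0.23 and -0.28 and Slc22a18, a transporter of the organic cation family, at 0.25 and 0.28. These 6 were picked after their values were seen.

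Zim1 had the lowest adjusted p of induction without B12. Its level was 139, 122 and 109.9 CPM in the MEF libraries of clones 1, 2 and 3 and 105, 82.6 and 103 CPM in OSKM. It was 138, 97.5 and 101 CPM in MEF+B12 and 110.5, 87.6 and 90.3 CPM in OSKM+B12. Each OSKM library was below the MEF library of its clone, and the highest OSKM library was below the lowest MEF library. Each OSKM+B12 library was also below the MEF+B12 library of its clone, but these groups overlapped across clones. The log2 difference was -0.35 ± 0.08 with an adjusted p of 0.159 by edgeR. Differences of the other members were small: log2 values ran from -0.45 ± 0.23 for Nnat to 0.68 ± 0.43 for Ascl2, and 23 of 39 were smaller than 0.2 in size. The median over members was 0.03 without B12, against -0.01 over all genes.

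Leaving out clone 3 ended this result. Then 8 of 40 members (20.0%) were called for induction without B12, against 6.87% of all genes. Rtl1 (0.56 ± 0.10, adjusted p 0.0159 by edgeR), Rian (0.32 ± 0.07), Mirg (0.74 ± 0.18), which hosts microRNAs, and Kcnq1ot1 (1.08 ± 0.21), a long noncoding RNA, were higher. Zim1 (-0.49 ± 0.07, adjusted p 0.0105 by edgeR), Asb4 (-0.71 ± 0.17), an ankyrin repeat protein, Mest (-0.37 ± 0.06) and Nnat (-0.84 ± 0.16), a small membrane protein called neuronatin, were lower. With B12, 4 of 40 members (10.0%) were called without clone 3, against 5.22% of all genes. These were Rtl1 (0.64 ± 0.10) and Cdkn1c (0.30 ± 0.06), which were higher, and Mest (-0.40 ± 0.06) and Nnat (-1.03 ± 0.16), which were lower. The summed level of the reprogramming factors went in clone 3 from 143 to 144 CPM with induction, against 162 to 209.7 in clone 1 and 161 to 198 in clone 2. Most of this sum was Klf4, which went from 139, 143 and 124 CPM in MEF of clones 1, 2 and 3 to 121, 122 and 119 in OSKM. Pou5f1 went from 0 to 2.86 CPM in clone 3, against 0.468 to 19.3 in clone 1 and 0.379 to 18.5 in clone 2. In clone 3 Sox2 went from 0.378 to 2.33 CPM and Myc from 18.6 to 20.0. The part of these factors in the members' values was not tested.

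**Figure D1:**
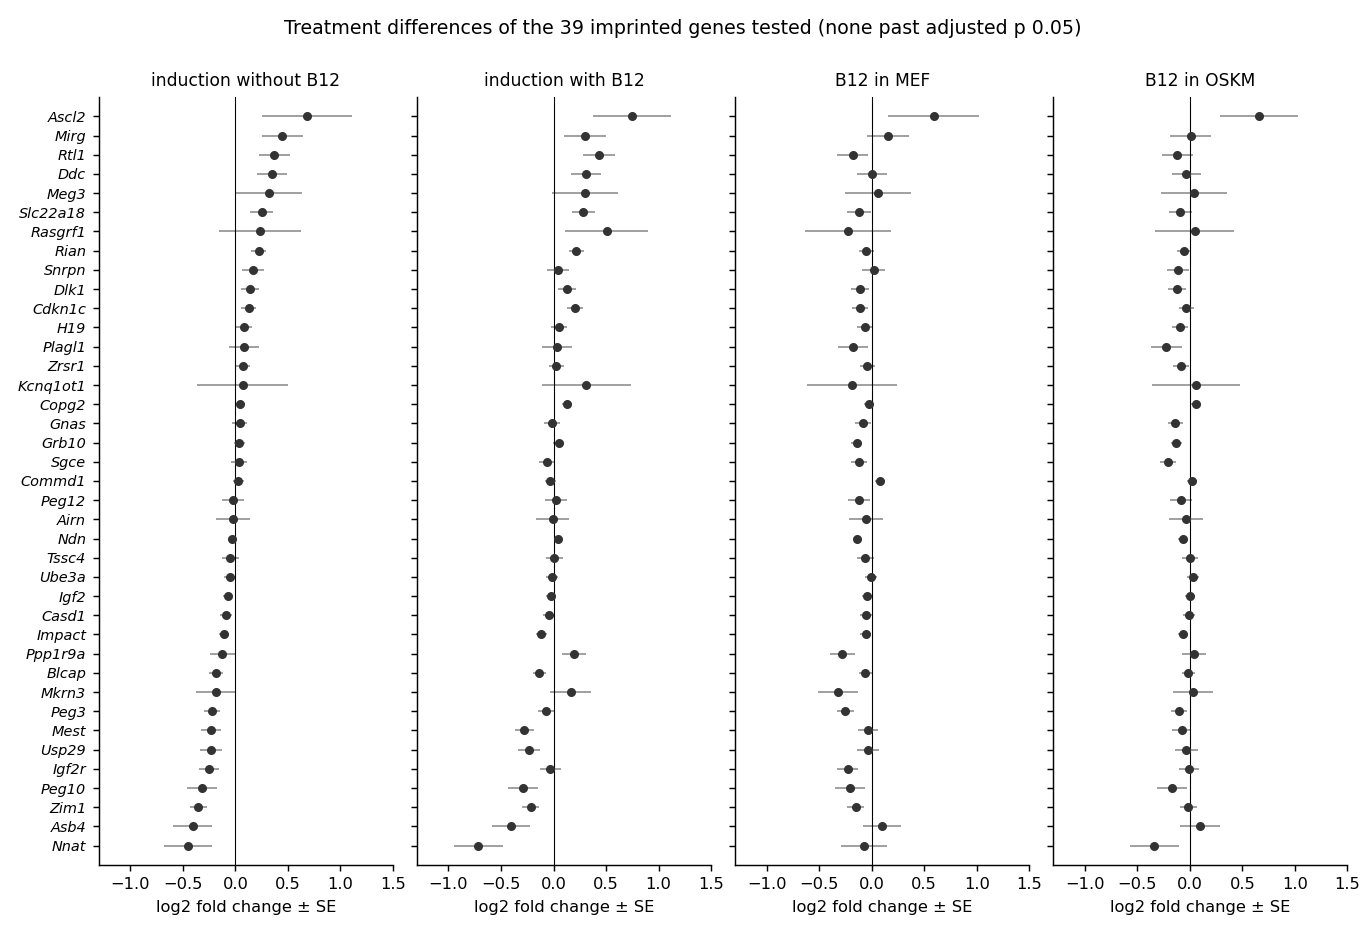
Each point is the log2 fold change of 1 of the 39 imprinted genes tested, with its standard error, for induction without and with B12 and for B12 in MEF and in OSKM cells. The points lie around 0, from -0.71 for Nnat to 0.75 for Ascl2 with induction in the presence of B12, and none is past an adjusted p of 0.05.

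Vitamin B12 also changed no imprinted gene past the threshold. In OSKM cells edgeR called 0 of 39 members against 1.06% of all genes, and in MEF cells 0 of 39 against 1.38%. DESeq2 called 0 in each, against 2.45% and 2.9% of all genes. At an unadjusted p under 0.05 there were 2 members in OSKM (5.13%, against 9.82% of all genes) and 5 in MEF (12.8%, against 10.3%). All of these were lower with B12, where 3.66% of all genes in OSKM and 3.82% in MEF were lower at that p. Averaged over both states, 0 of 39 members were called against 3.84% of all genes, and 4 (10.3%) had an unadjusted p under 0.05 against 15.5%. Again all 4 were lower, against 6.71% of all genes. The difference between the B12 effects in OSKM and MEF had 0 members called against 0% of all genes by edgeR, 0 by DESeq2, and 0 members at an unadjusted p under 0.05 against 1.42%.

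The 4 members at an unadjusted p under 0.05 for B12 on average, named after their values were seen, were Ndn, Grb10, Peg3 and Sgce. Ndn, or necdin, a MAGE family protein, was at -0.10 ± 0.03 (log2) and its adjusted p was 0.0797 by edgeR. Its 6 libraries without B12 ranged from 107 to 118 CPM and the 6 with B12 from 101 to 110.5 CPM, so they overlapped across clones. Within each of the 6 pairs of the same clone and state, the library with B12 was the lower. Grb10, an adaptor that binds the insulin receptor, was at -0.14 ± 0.04, the zinc finger gene Peg3 at -0.18 ± 0.05, and Sgce at -0.16 ± 0.05, with adjusted p-values of 0.0849 to 0.153 by edgeR. DESeq2 called Grb10, Ndn and Peg3, each lower, which is 3 of 39 members (7.69%) against 5.39% of all genes. More widely, 32 of 39 members (82.1%) had a log2 difference under 0 for B12 on average, with a median of -0.07, against 55.1% and -0.01 over all genes. With plain library totals as the scaling, 30 of 39 (76.9%) were under 0, against 45% of all genes. Macrophage markers were higher with B12, with a summed level of 1168 to 2246 CPM in MEF and 1772 to 2984 in MEF+B12, and of 1176 to 2056 in OSKM and 1798 to 2368 in OSKM+B12. Of 11 such markers, all but Cx3cr1 rose with B12 on average and none was at 0, and their part in the members' values was not tested. In bulk RNA, fewer cells of a type and less RNA per cell cannot be told apart.

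The spread that treatment did not account for followed the clone. The test of any difference between the clones called 23 of 39 members (59.0%), against 37.8% of all genes. For 15 members (38.5%) the 4 libraries of at least 1 clone did not overlap with those of the other clones, against 25.1% of all genes. The median member had 53.7% of its variance on the log2 scale between clones, against 38.0% over all genes, while 8.09% lay between uninduced and induced cells and 2.54% between cells without and with B12. Clone was the largest single component in 28 of 39 members (71.8%), against 54.6% of all genes. The range between the highest and the lowest clone mean had a median of 0.36 on the log2 scale, against 0.25 over all genes, and exceeded 1 for 6 members (15.4%, against 6.03%). Among the 23 called, clone 1 was highest for 13, clone 2 for 3 and clone 3 for 7, and clone 2 was lowest for 10.

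The clone difference depended most on clone 1, over all genes as well as in the members. Between clones 2 and 3 alone, 8 of 40 members (20.0%) were called, against 6.88% of all genes: Airn, Grb10, Igf2, Mest, Nnat, Peg10, Sgce and Slc22a18. Without clone 2, 19 of 41 members were called against 27.3% of all genes, and without clone 3, 19 of 40 against 28.2%. The first count includes Slc22a2 and the second Magel2, which passed the filter only through the clone where they were higher. The median clone share of variance of the members was 35.3% without clone 1, a value that was not computed over all genes. In the 6 uninduced libraries 24 of 39 members were called against 35.5%, and in the 6 induced libraries 17 of 39 against 18.8%. Clone 1 also had the highest proliferation markers, at 509.6 to 562 CPM against 404 to 467 in clone 2 and 444 to 465 in clone 3. Nerve markers summed to 40.2 to 43.8 CPM in clone 1 and 26.2 to 32.5 in the others. The part of these markers in the members' values was not tested.

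**Figure D2:**
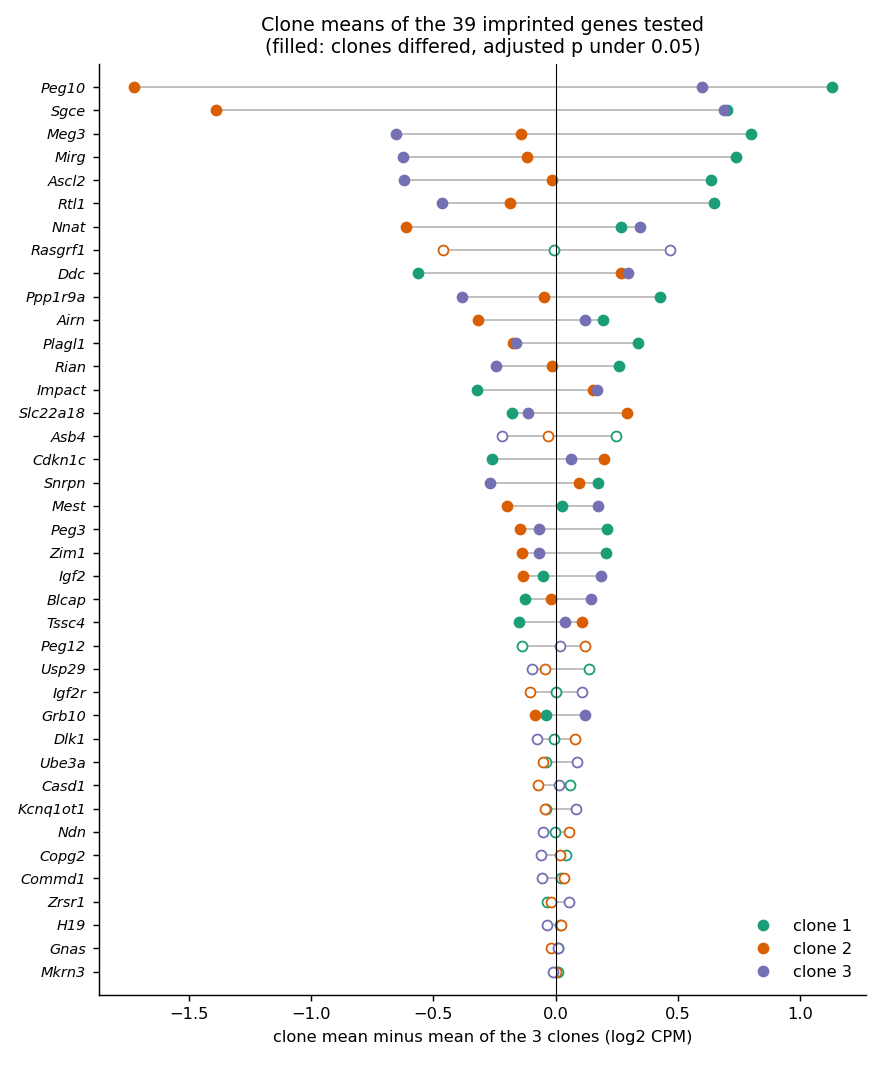
Points are the mean log2 CPM of each clone over its 4 libraries, minus the mean of the 3 clones, for each of the 39 imprinted genes tested; filled points mark genes whose clones differed at an adjusted p under 0.05. Peg10 and Sgce lie farthest apart, with ranges of 2.85 and 2.09, and the 16 genes with open points have ranges of 0.02 to 0.93.

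The widest clone differences were those of Peg10 and Sgce, neighbours on chromosome 6 that are transcribed head to head and are both expressed from the paternal copy. Peg10 (GRCm38 chr6:4747306-4760517, plus strand) encodes proteins derived from a retrotransposon and is needed for the placenta. In clone 1 it was at 25.3, 27.3, 22.2 and 22.7 CPM, given here and in what follows in the order MEF, MEF+B12, OSKM and OSKM+B12. In clone 2 it was at 5.20, 3.08, 2.94 and 2.62 CPM and in clone 3 at 18.9, 17.3, 17.8 and 13.7 CPM. All 4 libraries of clone 2 lay below every library of the other clones. Clone 2 was -2.84 ± 0.13 from clone 1 and clone 3 was -0.53 ± 0.12 from clone 1 (log2), and the adjusted p for any clone difference was 1.04e-06 by edgeR. This range was larger than that of 99.9% of all genes tested.

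Sgce (chr6:4674350-4747207, minus strand) encodes epsilon-sarcoglycan, a membrane protein of the dystrophin complex. Its level was 61.7, 56.4, 69.1 and 49.6 CPM in clone 1, 15.0, 13.7, 13.46 and 13.1 CPM in clone 2 and 59.3, 55.6, 61.2 and 57.7 CPM in clone 3. Again clone 2 stood alone below clones 1 and 3, which overlapped. The difference was -2.09 ± 0.07 between clones 2 and 1 and -0.01 ± 0.06 between clones 3 and 1, with an adjusted p of 4.08e-08 for any clone difference by edgeR. Clone held 98.7% of the variance of Sgce and 96.1% of that of Peg10. With clone 2 left out Sgce was no longer called (0.02 on the log2 scale, adjusted p 0.869 by edgeR), while Peg10 still was.

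The other members of the region had other patterns. Casd1, an enzyme that adds acetyl groups to sialic acids, lies on the far side of Sgce and was at 27.5 to 33.3 CPM over all 12 libraries (adjusted p 0.116 by edgeR). Ppp1r9a (chr6:4902917-5165661, plus strand), which encodes the actin-binding protein neurabin and is imprinted in some tissues only, was at 4.66, 4.15, 5.18 and 4.91 CPM in clone 1. It was at 3.87, 3.17, 2.94 and 3.60 CPM in clone 2 and 3.06, 2.35, 2.73 and 2.60 CPM in clone 3. Clone 1 was thus highest and clone 3 lowest, with -0.82 ± 0.10 between them and an adjusted p of 0.000353 by edgeR, and without clone 1 the call was lost (adjusted p 0.0976). Asb4 was at 1.38 to 3.21 CPM (adjusted p 0.0874 by edgeR). Outside the list, Tfpi2, Pon2 and Pon3 of the same region had adjusted p-values of 0.0898 to 0.673 by edgeR, with clone means of 30.0, 29.0 and 26.6 CPM for Pon2.

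The summed level of skeletal muscle markers was lowest in clone 2 as well, at 3.73 to 5.96 CPM, against 6.22 to 8.68 in clone 1 and 8.77 to 9.27 in clone 3. Of 7 such markers 3 passed the filter, and Myod1, Myog, Myf5 and Ckm were at 0 to 0.0641 CPM. Most of the sum was the filament protein gene Des (2.28 to 3.50 CPM in clone 2), and the lower sum rested mostly on it. Des in clone 2 was -1.04 ± 0.13 from clone 1 (log2). Acta1 went the other way, at 1.12 ± 0.21 (adjusted p 0.00253 by edgeR), and Tnnt1 was not called, at -0.24 ± 0.26 (adjusted p 0.518 by edgeR). The part of these markers in the level of Peg10 and Sgce was not tested.

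**Figure D3:**
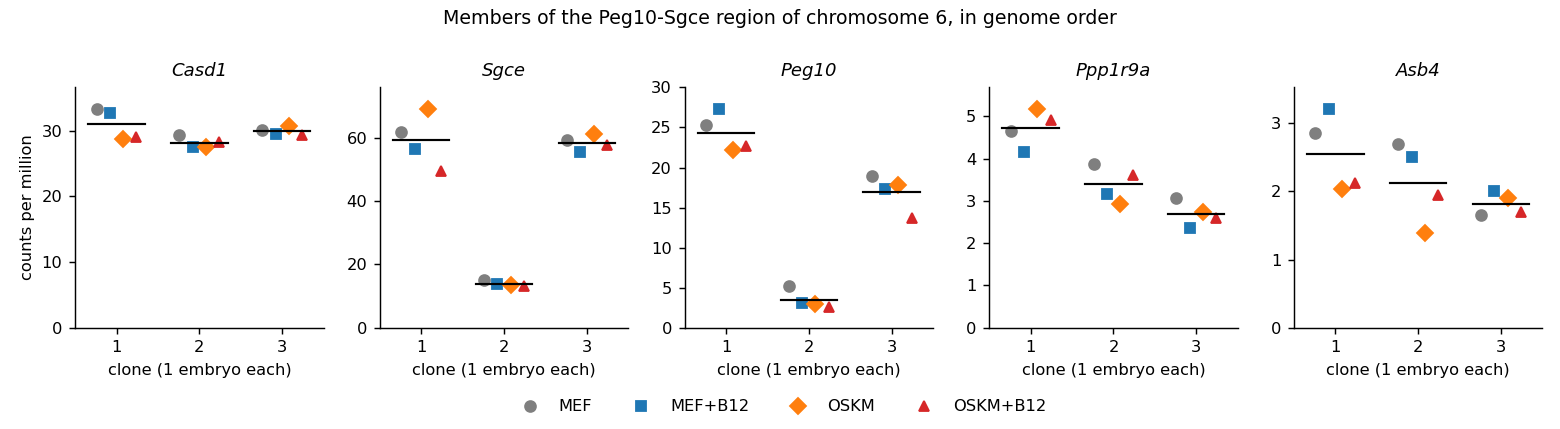
CPM of 5 imprinted genes of the Peg10-Sgce region in each library, grouped by clone on the horizontal axis, with 1 symbol per group and each vertical axis starting at 0 (black lines are clone means). Sgce in clone 2 is at 13.1 to 15.0 CPM against 49.6 to 69.1 in the other clones, while Casd1 stays at 27.5 to 33.3 CPM throughout.

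The noncoding RNAs of the Dlk1-Meg3 cluster on chromosome 12 and Rtl1 were highest in clone 1. In this cluster Dlk1 and Rtl1 are expressed from the paternal copy and Meg3, Rian and Mirg from the maternal copy. Meg3 (chr12:109541001-109571726, plus strand), a long noncoding RNA, was at 726, 635, 931 and 1005 CPM in clone 1. It was at 244, 509.8, 644 and 397 CPM in clone 2 and 370.3, 252, 213 and 386 CPM in clone 3. Clones 1 and 2 overlapped only through the OSKM library of clone 2, while clone 3 lay below every library of clone 1. Clone 3 was -1.40 ± 0.27 and clone 2 -0.88 ± 0.27 from clone 1 on the log2 scale (adjusted p 0.00522 for any clone difference by edgeR).

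Mirg (chr12:109729764-109749460), which hosts a microRNA cluster, was at 27.0, 26.9, 35.7 and 36.5 CPM in clone 1, 11.4, 18.6, 24.9 and 16.8 CPM in clone 2 and 12.1, 10.7, 10.4 and 16.1 CPM in clone 3. Its libraries followed the order of Meg3, with clone 1 above all others, and clone 3 was -1.35 ± 0.17 from clone 1 (adjusted p 0.000419 by edgeR). Rian (chr12:109603940-109661716) was at 659, 607, 823 and 790.0 CPM in clone 1, 539, 553, 672 and 604 CPM in clone 2 and 501, 476, 509 and 528 CPM in clone 3. Its differences were smaller, -0.50 ± 0.06 for clone 3 and -0.28 ± 0.06 for clone 2 against clone 1 (adjusted p 0.000341 by edgeR). Rtl1 (chr12:109589193-109600330, minus strand) was at 33.5, 32.7, 56.3 and 47.7 CPM in clone 1, 20.9, 17.6, 26.8 and 29.5 CPM in clone 2 and 21.1, 17.6, 20.9 and 17.3 CPM in clone 3. Every library of clone 1 was above those of the other clones, and the log2 difference from clone 1 was -1.11 ± 0.13 for clone 3 and -0.84 ± 0.13 for clone 2 (adjusted p 0.000165 by edgeR). Between clones 2 and 3 none of these 4 genes was called, with adjusted p-values from 0.0579 for Rian to 0.41 for Meg3 by edgeR.

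Dlk1 (chr12:109452823-109463336) was at 1521, 1474, 2031 and 1767 CPM in clone 1, 1846, 1625, 1871 and 1814 CPM in clone 2 and 1675, 1572, 1643 and 1529.7 CPM in clone 3. These libraries overlapped, and the clone means differed by 0.16 on the log2 scale (adjusted p 0.255 by edgeR). Meg3 also varied within a clone: the highest library exceeded the lowest 1.58-fold in clone 1, 2.64-fold in clone 2 and 1.81-fold in clone 3, against medians over members of 1.27, 1.25 and 1.14. Of the variance of Meg3, 69.7% lay between clones and 21.2% was residual, which neither clone, state, B12 nor their products held, whereas the residual share of Rian and of Rtl1 was 2.42% and 1.88%.

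**Figure D4:**
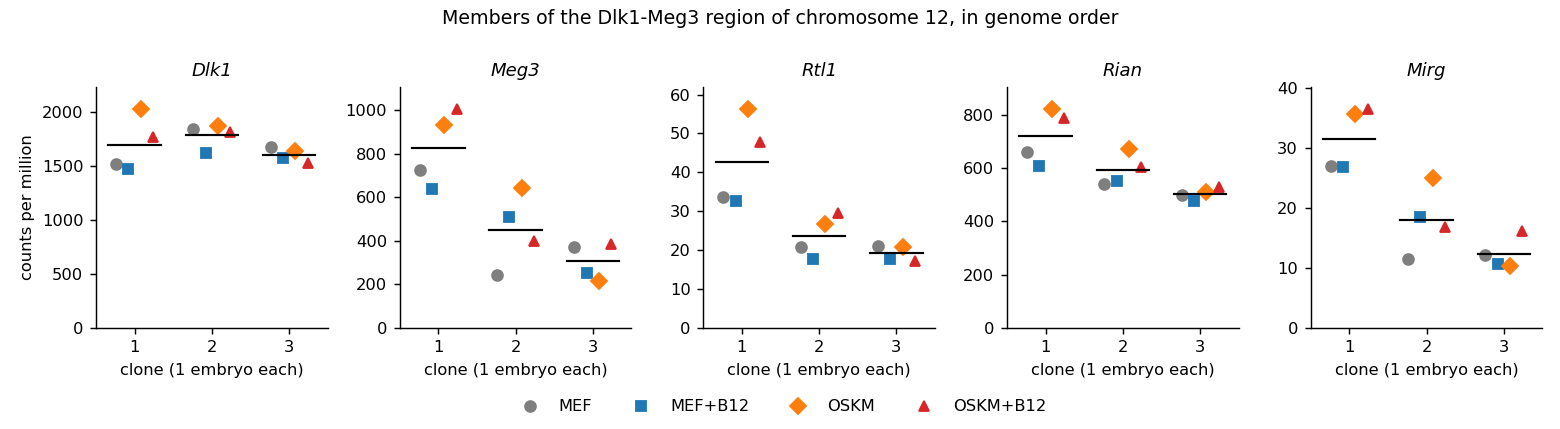
CPM of 5 imprinted genes of the Dlk1-Meg3 cluster in each library, grouped by clone, with 1 symbol per group and each vertical axis starting at 0 (black lines are clone means). Rtl1 in clone 1 is at 32.7 to 56.3 CPM against 17.3 to 29.5 in the other clones, while Dlk1 is at 1474 to 2031 CPM with overlapping clones.

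The start of Meg3 is shown because this cluster depends on methylated DNA near it. The protein ZFP57 keeps imprints by binding the hexamer TGCCGC when its CG is methylated. The window of 250 bases before the annotated start of Meg3, chr12:109540746-109540995 on the plus strand (RefSeq, GRCm38.p6), overlaps no annotated gene and holds 10 CG dinucleotides and 1 match to the hexamer. The match is in capitals and reads on the reverse strand, as GCGGCA.
Meg3: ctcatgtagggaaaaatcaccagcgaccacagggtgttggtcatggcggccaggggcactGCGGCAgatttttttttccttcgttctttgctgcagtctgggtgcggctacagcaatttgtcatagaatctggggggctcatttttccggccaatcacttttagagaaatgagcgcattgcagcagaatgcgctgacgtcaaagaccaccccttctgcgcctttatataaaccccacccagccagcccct
Over the 250 bases before each start, with both strands searched, 2850 of 32851 annotated starts (8.68%) held the hexamer and 8 of the 55 starts of 37 matched members (14.5%), which belong to 7 genes. The median number of CG dinucleotides was 6 over all starts and 10 over those of members. A match is a description of the letters only.

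The other members among the 12 with the widest clone range of those called were Ascl2, Ddc, Plagl1, Airn and Nnat, the last of which is described with Mest. Ascl2 (chr7:142966829-142969264, minus strand), a helix-loop-helix factor of the placenta, was at 0.173, 0.347, 0.297 and 0.632 CPM in clone 1, 0.174, 0.207, 0.242 and 0.177 CPM in clone 2 and 0.0631, 0.0882, 0.128 and 0.261 CPM in clone 3. These levels rest on 4 to 43 counts a library, and the call (1.25 on the log2 scale, adjusted p 0.019 by edgeR) was lost without clone 1 or without clone 3. Ddc (chr11:11814101-11898144, minus strand), the decarboxylase that makes dopamine and serotonin, was at 1.40, 1.69, 2.25 and 2.29 CPM in clone 1, 3.05, 2.74, 4.10 and 3.70 CPM in clone 2 and 3.41, 3.32, 3.45 and 3.52 CPM in clone 3. Here clone 1 was lowest and did not overlap with the others, with clone 2 at 0.83 ± 0.13 and clone 3 at 0.86 ± 0.12 from it (adjusted p 0.00061 by edgeR). Plagl1 (chr10:13060504-13131694), a zinc finger factor that restrains growth, was at 986, 969.9, 1555 and 1062 CPM in clone 1, 912, 729, 738 and 782 CPM in clone 2 and 880.2, 785, 797 and 723 CPM in clone 3. Clone 1 was highest in each group, most of all in OSKM, with clone 2 at -0.52 ± 0.12 and clone 3 at -0.51 ± 0.12 (adjusted p 0.00909 by edgeR). Between clones 2 and 3 the adjusted p was 0.898 for Ddc and 0.855 for Plagl1.

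Airn (chr17:12741311-12860136, plus strand), the noncoding RNA that silences the paternal copy of Igf2r, was at 3.45, 3.80, 4.88 and 4.15 CPM in clone 1, 2.83, 2.96, 2.58 and 2.94 CPM in clone 2 and 4.71, 3.82, 3.48 and 3.44 CPM in clone 3. Clone 2 was lowest in each group, at -0.53 ± 0.14 from clone 1 (adjusted p 0.0253 by edgeR), and without clone 2 the call was lost (adjusted p 0.716). Igf2r itself, the receptor that clears IGF2, was at 385 to 579 CPM with an adjusted p of 0.169 by edgeR. Airn starts within Igf2r on the opposite strand, and counting was strand-specific.

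Among the growth genes of distal chromosome 7, the differences between clones were smaller. The growth factor Igf2 had clone means of 321 ± 4.51, 304 ± 13.9 and 379 ± 11.2 CPM in clones 1, 2 and 3 (for clone means, ± is the SD over 4 libraries), and 91.8% of its variance lay between clones (adjusted p 0.000353 by edgeR). Of its exon bases, 62.8% overlap another annotated gene on the same strand, so its count is uncertain. H19, its reciprocally imprinted neighbour, was not called over all 12 libraries (adjusted p 0.706 by edgeR), with clone means of 11990.4 ± 1316, 11984 ± 278 and 11508 ± 324 CPM. Cdkn1c had clone means of 1321 ± 163, 1807 ± 162 and 1644 ± 46.9 CPM, lowest in clone 1 (adjusted p 0.000739 by edgeR). Slc22a18 was highest in clone 2 at 6.10 ± 0.855 CPM, against 4.42 ± 0.826 in clone 1 and 4.56 ± 0.140 in clone 3 (adjusted p 0.00472 by edgeR). Kcnq1ot1, the antisense RNA of the Kcnq1 cluster, varied more within clones than between them. Its level was 1.78, 2.01, 3.28 and 3.50 CPM in clone 1, 1.49, 2.69, 3.61 and 2.80 CPM in clone 2 and 5.14, 2.56, 1.69 and 2.61 CPM in clone 3. The MEF libraries alone ran from 1.49 to 5.14 CPM. Of its variance 1.49% lay between clones, 53.8% was the product of clone and state, and 38.2% was residual. In clones 1 and 2 both induced libraries were above both uninduced ones, while in clone 3 the level went from 5.14 to 1.69 CPM without B12 and from 2.56 to 2.61 with it (adjusted p 0.231 by edgeR for an unequal response).

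The other members called between clones were Peg3, Zim1, Grb10, Snrpn, Blcap, Tssc4 and Impact, besides Mest, with clone ranges of 0.21 to 0.49. Impact, an inhibitor of the kinase GCN2, was lowest in clone 1, with means of 99.8 ± 6.55, 139 ± 11.0 and 140.1 ± 2.34 CPM in clones 1, 2 and 3 (adjusted p 2.39e-05 by edgeR). Snrpn, a spliceosome protein gene of the Prader-Willi cluster, had means of 3.82 ± 0.162, 3.62 ± 0.340 and 2.80 ± 0.253 CPM (adjusted p 0.00679 by edgeR), but 27.3% of its exon bases overlap other genes on its strand, so it is uncertain. The other members of that cluster that were tested, Ndn, Ube3a, Peg12 and Mkrn3, had adjusted p-values of 0.0653 to 0.992. The 16 members not called over all 12 libraries were H19, Igf2r, Dlk1, Usp29, Casd1, Asb4, Copg2, Ndn, Ube3a, Peg12, Mkrn3, Gnas, Kcnq1ot1, Zrsr1, Commd1 and Rasgrf1, and the smallest clone range among those over 100 CPM was that of Gnas, at 2524 to 3136 CPM (0.03 on the log2 scale). Of these 16, H19, Dlk1, Casd1 and Asb4 were called between clones in the 6 uninduced libraries alone.

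Mest and Nnat were the only members whose response to induction differed between clones in the test of that difference by edgeR. It called 2 of 39 members against 2.15% of all genes, and 12 (30.8%) had an unadjusted p under 0.05 against 14.8%. Mest (chr6:30723547-30748465, plus strand) was at 904, 872, 728 and 648 CPM in clone 1, 790.1, 749, 583 and 582 CPM in clone 2 and 855, 873, 887 and 846 CPM in clone 3. Both induced libraries were below both uninduced ones in clones 1 and 2, while in clone 3 they overlapped. The log2 difference with induction was -0.31, -0.44 and 0.05 in clones 1, 2 and 3 without B12 and -0.43, -0.36 and -0.05 with B12 (adjusted p 0.0379 by edgeR).

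Nnat (chr2:157560078-157562522, plus strand) was at 4.64, 4.62, 2.55 and 2.18 CPM in clone 1, 2.69, 2.17, 1.54 and 1.13 CPM in clone 2 and 3.33, 3.56, 3.98 and 3.13 CPM in clone 3. As for Mest, both induced libraries lay below both uninduced ones in clones 1 and 2 and overlapped with them in clone 3. The differences were -0.86, -0.79 and 0.25 without B12 and -1.08, -0.93 and -0.18 with B12 (adjusted p 0.0379 by edgeR). Nnat also differed in level between clones, with clone 2 at -0.89 ± 0.20 from clone 1 and clone 3 at 0.96 ± 0.20 from clone 2 (adjusted p 0.00641 by edgeR), a call that was lost without clone 2 (adjusted p 0.865).

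The calls for an unequal response are not stable. DESeq2 called 5 members (Cdkn1c, Dlk1, Kcnq1ot1, Mest and Rtl1; 12.8%) against 3.6% of all genes, and not Nnat (adjusted p 0.0512 by DESeq2). Without clone 1 Mest was called and Nnat was not (adjusted p 0.0589 by edgeR), with 2 of 40 members called against 3.79% of all genes. Without clone 2 neither was called (0.0979 and 0.0545 by edgeR), with 1 of 41 members called against 1.01%. Without clone 3, 0 of 40 members were called by edgeR, against 0% of all genes, and 2 had an unadjusted p under 0.05. The libraries in which Mest and Nnat were lower also had more factor RNA: Pou5f1 was at 20.7, 18.95 and 2.33 CPM in the OSKM+B12 libraries of clones 1, 2 and 3. Epithelial markers summed to 11.4, 8.16 and 1.30 CPM in OSKM, from 1.80, 1.41 and 1.15 in MEF. Their rise in clones 1 and 2 was mostly Krt14 and Krt8. Cdh1 rose less, Krt18 stayed near its MEF level, and Epcam and Ocln were near 0. Endothelial markers summed to 145, 125 and 53.1, from 42.8, 46.6 and 41.9. Most of that sum was Tek, at 139, 118 and 46.0 CPM in OSKM, from 38.4, 42.3 and 35.5 in MEF. Cdh5 also rose, Kdr did not rise in clones 1 and 2, and Pecam1, Tie1, Emcn and Cldn5 were near 0. Fibroblast markers summed to 83856, 96151 and 113236 CPM in OSKM, from 112833, 137652 and 117649 in MEF. Most of this sum was the collagen genes Col1a1, Col1a2 and Col3a1. In clone 1 Thy1, Vim and Fn1 went the other way, from 330, 1897 and 2810 CPM in MEF to 392, 2114 and 3181 in OSKM. Pdgfra, Pdgfrb and S100a4 were lower there, and in clone 2 S100a4 alone was higher. The part of these markers in the response of Mest and Nnat was not tested.

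**Figure D5:**
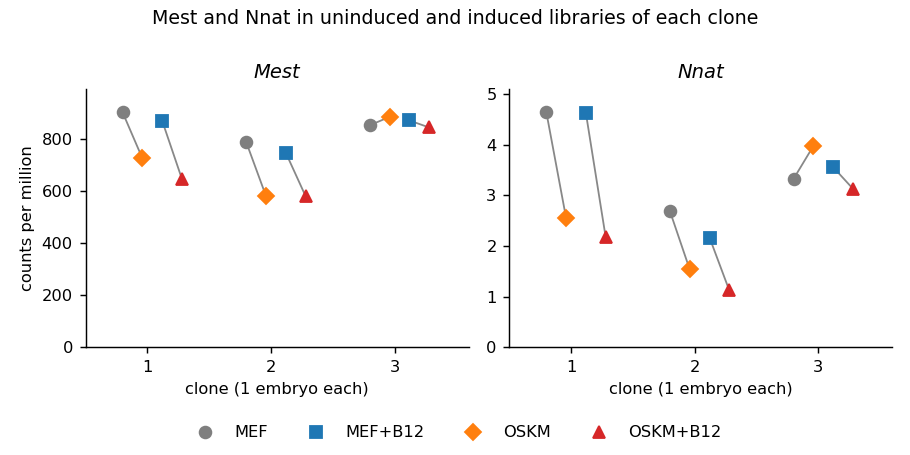
CPM of Mest and Nnat in each library, with the uninduced and the induced libraries of each clone side by side, 1 symbol per group, grey lines joining libraries of the same clone and B12 treatment, and vertical axes starting at 0. In clones 1 and 2 the induced libraries lie below the uninduced ones (Nnat in clone 1 at 2.18 to 2.55 CPM against 4.62 to 4.64), while in clone 3 they overlap.

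The start of Mest is shown for the same reason as that of Meg3, since the control region of Mest lies at its promoter and is methylated on the maternal copy. The 250 bases before the start with most CG dinucleotides, chr6:30737800-30738049 on the plus strand (RefSeq, GRCm38.p6), lie inside the Mest gene and outside its exons. They hold 14 CG dinucleotides and 2 matches to the hexamer TGCCGC on either strand, in capitals.
Mest: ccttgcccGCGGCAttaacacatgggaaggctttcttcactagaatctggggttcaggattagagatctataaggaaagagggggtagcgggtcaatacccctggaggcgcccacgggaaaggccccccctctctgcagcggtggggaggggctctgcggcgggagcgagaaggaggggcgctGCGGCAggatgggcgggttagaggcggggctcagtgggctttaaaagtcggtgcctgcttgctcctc
The corresponding window of Nnat held 12 CG dinucleotides and 0 matches, which says only that these letters are not in it.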

How the data were processed

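RNA-seq counts of 12 libraries were used, all of them mapped to 4 groups and 3 clones by the labels. The authors isolated poly(A) RNA, made strand-specific libraries, aligned read pairs to mm10 (GRCm38) with STAR (version 2.5.2 per the submitters' processing notes) and assigned them to genes of Ensembl release 97 with featureCounts, set to the reverse strand. The deposited table holds unnormalised counts of read pairs, for which the authors added the sequencing runs of a library together. The labels and the methods give different numbers of flow cells, and for doxycycline the value of the labels was used. Treatment of reads matching several places is not given in the sources used here.

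Gene symbols and coordinates were taken from GENCODE M21 on GRCm38 (55480 of 55573 identifiers matched). CPM were computed here from the deposited counts and TMM factors (0.934 to 1.06), and log2 CPM used a prior count of 2. Tests were edgeR 4.0.16 quasi-likelihood F tests with clone and group as terms on the 19174 genes kept by filterByExpr, with Benjamini-Hochberg adjustment over all of them. The unequal response was tested with clone by state terms. The labels pair libraries by clone, 1 embryo each, and libraries of a clone deviated together (correlations of 0.270 to 0.687 over 18 pairs, against at most 0.170 between clones over 36 pairs). Variance shares are sums of squares of log2 CPM and carry no test. Alternatives were DESeq2 1.42.0, other scalings and filters, no clone block, single states and leaving out each clone or the induced clone 1 library. Scripts ran in R 4.3.3 and Python 3.11.15 and were tested on simulated data.

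The members were picked by symbol, and they and the gene lists were chosen with earlier results of these data known. Members are given with the value in every library where a treatment or the response test called them, or where they are among the 12 called members with the widest clone range. The others are given by ranges and counts, and up to 4 other imprinted genes of widest clone range are named.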

Additional observations from a re-analysis of the deposited data

Results flagged for a closer look

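Mest and Nnat drew attention because the test of the difference itself found their response to induction to be unequal between clones, with an adjusted p of 0.0379 for Mest and 0.0379 for Nnat by edgeR. The induced libraries were lower in clones 1 and 2, with log2 differences of -0.44 to -0.31 for Mest and -1.08 to -0.79 for Nnat, and the difference in clone 3 was -0.05 to 0.05 for Mest and -0.18 to 0.25 for Nnat. Groups of 3 libraries are too small for a test of single outlying libraries, so none was run.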

How the results depend on the processing

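The counts of members past the threshold changed with these settings. For induction without B12, DESeq2 gave 1 and no filter on low counts gave 1 (both Zim1), against 2.75% and 2.06% of all genes. Leaving out 1 clone or the OSKM library of clone 1 gave 0 to 8, against 0.00518% to 6.87% of all genes. For induction with B12, no filter gave 2 (Nnat and Rtl1), against 1.95% of all genes, and the leave-outs gave 0 to 4, against 0.00518% to 5.22%. For B12 on average, DESeq2 gave 3 and no filter 1 (Peg3), against 5.39% and 2.51% of all genes. The leave-outs gave 0 there, against 0.176% to 4.03%. The clone test gave 8 to 25 under the leave-outs, against 6.88% to 35.9% of all genes, with 25 when the OSKM library of clone 1 was left out. Those 25 include Slc22a2, which passed the filter there only through clone 3. With library totals it gave 27, against 40.4%. The test of unequal response gave 5 with DESeq2, 4 with library totals (Dlk1, Mest, Nnat and Rtl1) and 8 with no filter. Of all genes, 3.6%, 2.24% and 3.8% were called in these settings. Under the leave-outs it gave 0 to 4, against 0% to 4.3% of all genes. The median clone share of variance, 53.7%, was 35.3% to 51.4% under the leave-outs and 56.2% with library totals. A fit without the clone block, which ignores the pairing, gave 0 members in each of the 6 treatment comparisons. It called 0% of all genes in each of them except B12 on average, where it called 0.469%, so these zeros are not particular to the members. No value changed sign past its threshold. All 12 of 12 named clone differences kept their direction and call under DESeq2 size factors and library totals. Depth limits the 8 members with a mean under 1 CPM.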

Other observations

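A further 36 imprinted genes outside the list gave a comparison set, of which 29 were tested. Between clones 15 of 29 (51.7%) were called, against 37.8% of all genes. The median clone share of variance was 36.0%, slightly below the 38.0% over all genes. The widest clone ranges among those called were Tspan32, a tetraspanin gene, at 1.19 on the log2 scale, Sfmbt2, a Polycomb family gene, at 0.81, Klf14, a zinc finger factor, at 0.78, and Nap1l5, at 0.76. For B12 on average edgeR called 2 of 29 (6.9%) against 3.84% of all genes. Ampd3, an AMP deaminase, rose with B12 by 0.38 ± 0.07 in OSKM, 0.45 ± 0.07 in MEF and 0.41 ± 0.05 on average (adjusted p 0.0295, 0.0125 and 0.000859 by edgeR), and Qpct, a glutaminyl cyclase, by 0.43 ± 0.10 on average (adjusted p 0.0469 by edgeR). The response to induction differed between clones for 3 of 29 (10.3%), against 2.15% of all genes: Dio3, a deiodinase gene at the far end of the Dlk1-Meg3 cluster (adjusted p 0.0145 by edgeR), Cobl (0.0107) and Htr2a (0.0317). Whether the members and this set differ was not tested. Macrophage markers other than Cx3cr1 also rose with B12 on average, and their part in Ampd3 and Qpct was not tested.

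Of 12 genes listed for DNA methylation and the upkeep of imprints, Tet1 and Tet2 among them, 5 (41.7%) differed between clones by edgeR. This share is close to the 37.8% of all genes. Zfp57 had clone means of 22.5 ± 2.02, 14.9 ± 3.14 and 14.2 ± 1.01 CPM (SD, n = 4) and Uhrf1, which guides DNA methylation to newly copied DNA, 40.3 ± 3.23, 30.3 ± 2.46 and 31.7 ± 1.36 CPM. Ctcf, Trim28 and Smchd1 were the others, and all 5 had their highest mean in clone 1. Uhrf1 was also higher with B12 on average, by 0.15 ± 0.03 (adjusted p 0.0428 by edgeR). Dnmt1, which maintains DNA methylation, was at 86.2 to 102 CPM and was not called in any comparison.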
